A study of Homo sapiens with 21 samples.

Results

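Eph receptors and ephrins were followed in MCF10A cells, an immortalised and non-tumorigenic line of human mammary epithelial cells, during a response to epidermal growth factor (EGF). The group held 8 genes of 19426 named in the table, chosen by symbol, with earlier results of these data known. They were the receptors EPHA2, EPHA4, EPHB2 and EPHB4 and the ligands EFNA1, EFNA5, EFNB1 and EFNB2. A probeset (a short stretch of a transcript read by a few array probes) was a member when the platform annotation named it with 1 of these symbols only. This gave 149 probesets of the 354600 that carry a single symbol. Of these, 144 passed the filter on dim probesets and 5 did not, and all 8 genes were among the 16614 genes tested.

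Ephrins are ligands anchored in the membrane of one cell that bind Eph receptor tyrosine kinases on a neighbouring cell. A-type ephrins are held by a lipid anchor and mostly bind EphA receptors, while B-type ephrins span the membrane and mostly bind EphB receptors, with EPHA4 accepting ligands of both types. Signals run into the receptor cell (forward) and into the ephrin cell (reverse), and in epithelia the system is known for control of cell adhesion, repulsion, migration and boundaries between cell layers. EPHA2 is also known to signal without ligand, when it is phosphorylated by kinases that lie below growth factor receptors.

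The 6 EGF groups held cells given EGF at 20 ng/ml for 20, 40, 60, 120, 240 or 480 min, and the group at 0 min was harvested before EGF. All 7 groups shared the same preparation, in which low-passage cells were plated without EGF for 24 h and then starved for 24 h, with 1% horse serum present. Each group had 3 arrays from cultures that the labels describe as biological triplicates, which makes 21 arrays of 1 cell line. No untreated arrays stood at the later times, so EGF cannot be told apart from handling or from time in culture. Fewer cells expressing a gene and less RNA per cell cannot be told apart in such bulk RNA.

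A gene's value was the median of log2(intensity + 16) over its kept probesets, and a log2 change is the mean of 3 arrays at the later time minus the mean of 3 arrays at the earlier one. Such a value depends on a gene's own probes, so the members' levels are compared only between arrays of the same gene. A gene was called when the limma test, adjusted by the Benjamini-Hochberg method over all 16614 genes, gave p under 0.05. Values after ± are limma standard errors with 3 arrays a side. The labelled cell type was checked roughly, across different probes. Of 10 basal mammary and keratinocyte markers, 9 were tested and 9 lay above the median of all gene values, KRT5, KRT14 and TP63 among them. The corresponding counts were 4 of 8 for luminal, 2 of 6 for fibroblast, 0 of 5 for endothelial and 0 of 3 for blood markers. An index of array quality, the median log2 value of probesets with 1 symbol minus that of unnamed probesets, averaged between 1.27 and 1.32 at the EGF times and 1.24 at 0 min. The array of replicate C at 20 min stood apart, since 881 genes were called higher at 20 min without it and 149 with it.

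The promoters of 3 members that rose early (EPHA2, EFNB2 and EFNA1) and 2 that fell late (EPHA4 and EFNA5) are shown, so that the letters before their starts can be compared. The 250 bases before the start of each gene come from RefSeq, assembly GRCh38.p14, where all 8 genes matched, with 10 start sites in all. Capitals mark GGGCGG (the GC-box bound by SP1-type factors), TGACGTCA (the cAMP response element) and TATAAA (the TATA box), each searched on both strands.
EPHA2, chr1:16156070-16156319, minus strand: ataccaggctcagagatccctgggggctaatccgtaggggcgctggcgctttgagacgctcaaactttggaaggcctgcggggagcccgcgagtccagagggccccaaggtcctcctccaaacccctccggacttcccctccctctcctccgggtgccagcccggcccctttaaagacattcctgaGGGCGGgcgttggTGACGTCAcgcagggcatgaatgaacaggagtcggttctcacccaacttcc
EFNB2, chr13:106535663-106535912, minus strand: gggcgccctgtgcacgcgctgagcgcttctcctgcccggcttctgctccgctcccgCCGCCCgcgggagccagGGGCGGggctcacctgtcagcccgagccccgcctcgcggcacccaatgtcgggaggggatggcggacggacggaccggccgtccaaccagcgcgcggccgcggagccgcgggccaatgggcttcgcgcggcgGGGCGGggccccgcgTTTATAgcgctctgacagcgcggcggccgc
EFNA1, chr1:155127626-155127875, plus strand: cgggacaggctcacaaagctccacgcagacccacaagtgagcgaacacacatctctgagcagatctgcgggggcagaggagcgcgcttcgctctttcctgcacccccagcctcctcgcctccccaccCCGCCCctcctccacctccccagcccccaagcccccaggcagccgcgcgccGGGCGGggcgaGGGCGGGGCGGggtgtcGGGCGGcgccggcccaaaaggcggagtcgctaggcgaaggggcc
EPHA4, chr2:221574203-221574452, minus strand: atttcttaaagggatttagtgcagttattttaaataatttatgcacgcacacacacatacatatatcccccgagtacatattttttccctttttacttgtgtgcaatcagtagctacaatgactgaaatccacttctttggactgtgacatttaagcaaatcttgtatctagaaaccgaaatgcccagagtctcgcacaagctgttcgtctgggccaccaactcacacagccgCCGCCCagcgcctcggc
EFNA5, chr5:107670938-107671187, minus strand: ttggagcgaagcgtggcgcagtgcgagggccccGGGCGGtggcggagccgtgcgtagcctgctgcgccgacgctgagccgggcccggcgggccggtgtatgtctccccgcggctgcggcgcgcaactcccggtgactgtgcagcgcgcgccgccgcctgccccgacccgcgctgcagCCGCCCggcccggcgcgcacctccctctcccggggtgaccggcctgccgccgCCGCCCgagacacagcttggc

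In these windows EPHA2 held the only cAMP response element among the members, at 51 to 44 bases before its start. The same letters occurred in 1.65% of the 35116 promoter windows of this length in the table. EFNB2 held the only TATA box, on the opposite strand at 30 to 25 bases before its start, a motif found in 10.7% of all windows. All 8 genes held at least 1 GC-box, against 42.6% of all windows, and EFNA1 held 5, of which a pair shares 1 base. No member window held the AP-1 site TGANTCA (6.57% of all windows), the ETS site CCGGAAGT (3.42%), the E-box CACGTG (6.34%), the forkhead site TGTTTAC (2.98%) or the CArG box of serum response factor (1.16%). The members' windows were rich in G and C, with 63.2% in EPHA2, 78.4% in EFNB2, 73.2% in EFNA1 and 79.6% in EFNA5, while the window of EPHA4 had 43.2% and the median of all windows was 58%. A second listed start of EPHA4 had 78% and 5 GC-boxes. A match is only a run of letters, and no binding was measured.

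The 8 genes split in direction and in time. EPHA2 rose at every time after EGF, EFNB2 rose at 60 and 120 min, and EPHB2 rose late, at 240 and 480 min. EPHA4 fell from 120 min on and EFNA5 fell at 240 and 480 min. EFNA1 rose at 40 and 60 min and fell at 120 min. EPHB4 changed over the course without a call at any single time, and EFNB1 was not called. Over the whole course 7 of 8 members passed the moderated F-test over the 6 contrasts against 0 min, where 27.5% of all genes tested passed.

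**Figure D1:**
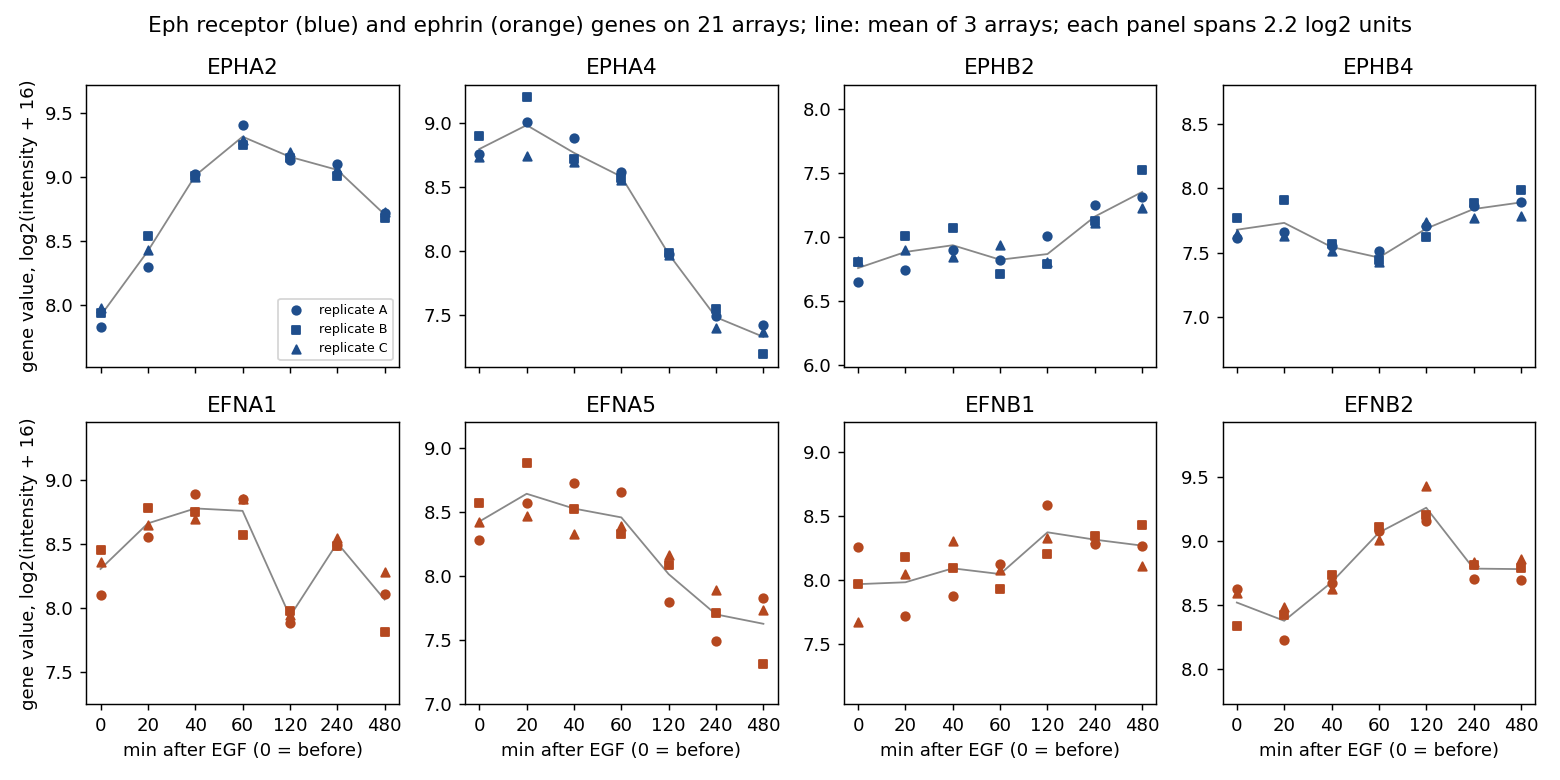
Gene value, log2(intensity + 16), of the 8 genes on each of the 21 arrays (symbols: replicates A, B and C) over min after EGF on an evenly spaced axis, with a line through the means of 3 arrays. EPHA2 climbs to 60 min, EFNB2 peaks at 120 min, and EFNA1 drops between 60 and 120 min. The means of EPHA4 and EFNA5 descend from 20 min on, with their largest step between 60 and 120 min.

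The number of members past the threshold was small at first and rose with time, as it did in the table at large. At 20 min 1 of 8 was higher and 0 were lower, beside 0.897% and 0.0843% of all genes. At 40 min 2 were higher and 0 lower, beside 1.82% and 0.415%. At 60 min 3 were higher and 0 lower, beside 4.82% and 0.975%. For the counts of 0 lower in limma at these times, the numbers at an unadjusted p under 0.05 were 0, 0 and 1. At 120 min 2 were higher and 2 lower, beside 11.2% and 3.21% of all genes. At 240 min 2 were higher and 2 lower, beside 13.5% and 6.21%. At 480 min 2 were higher and 2 lower, beside 15.5% and 7.11%. The median change of the members was 0.16 at 20 min, 0.06 at 120 min and 0.24 at 480 min, while the median of all genes was 0.02, 0.04 and 0.05. Receptors gave both directions from 120 min on (1 higher and 1 lower of 4 at 120 min, 2 and 1 at 240 and 480 min). Among the 4 ligands 1 was higher at 40 min, 2 at 60 min and 1 at 120 min, and 1 was lower at 120, 240 and 480 min.

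**Figure D2:**
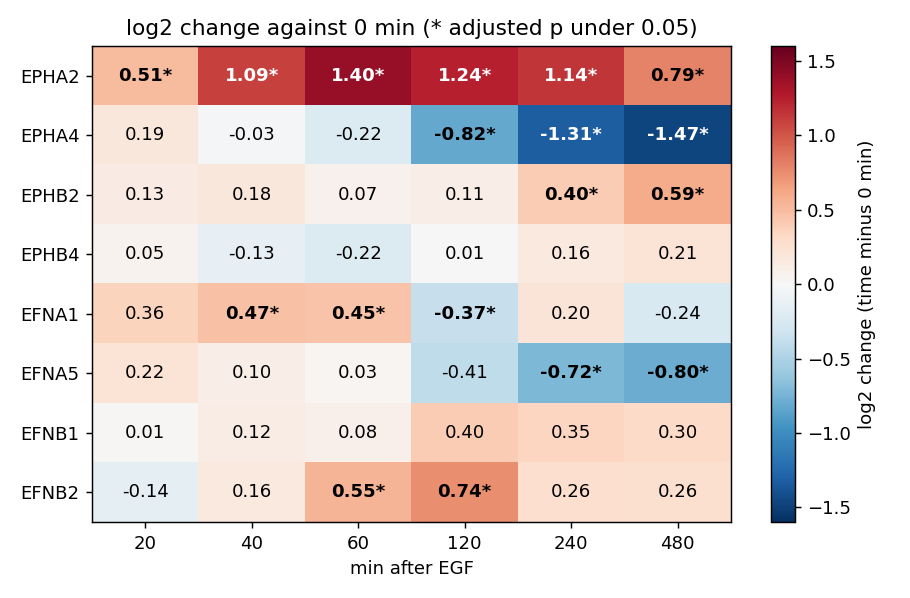
Log2 change against 0 min of each gene (rows) at each EGF time (columns), coloured from blue (lower) to red (higher), with bold values and an asterisk where the adjusted p is under 0.05. The row of EPHA2 is called at all 6 times, with the highest value, 1.40, at 60 min, and the row of EPHA4 reaches -1.47 at 480 min.

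EPHA2 is a receptor of A-type ephrins that is widespread in epithelia and regulates their migration. Its 3 arrays read 7.83, 7.93 and 7.98 at 0 min, 8.30, 8.42 and 8.54 at 20 min, 9.00, 9.00 and 9.02 at 40 min and 9.25, 9.28 and 9.40 at 60 min. They then read 9.13, 9.14 and 9.19 at 120 min, 9.00, 9.06 and 9.10 at 240 min and 8.67, 8.72 and 8.72 at 480 min. All 18 arrays after EGF lay above all 3 arrays at 0 min. The change was 0.51 ± 0.09 at 20 min (adjusted p = 0.00289 in limma), 1.09 at 40 min and 1.40 at 60 min, a 2.64-fold rise with adjusted p = 3.02e-10. It was 1.24 at 120 min, 1.14 at 240 min and 0.79 at 480 min, a 1.73-fold rise with adjusted p = 1.02e-06. At 60 min its change was number 72 of 16614 from the highest. The step between 20 and 40 min was called (0.59, adjusted p = 0.00083), and the later steps were not, with -0.35 between 240 and 480 min (adjusted p = 0.0527, called in 7 of 18 alternatives). The call at 20 min and the step between 20 and 40 min were lost when only the arrays of the 2 times compared were fitted (adjusted p = 0.191 and 0.103).

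EPHA4, a receptor that binds ligands of both types, fell from 120 min on. Its 3 arrays read 8.74, 8.76 and 8.89 at 0 min, 8.74, 9.01 and 9.20 at 20 min, 8.70, 8.72 and 8.88 at 40 min and 8.55, 8.57 and 8.62 at 60 min. They then read 7.97, 7.98 and 7.98 at 120 min, 7.40, 7.50 and 7.55 at 240 min and 7.19, 7.37 and 7.42 at 480 min. From 120 min on all 9 arrays lay below all 3 arrays at 0 min, whereas at 20 and 40 min the groups overlapped. The change was 0.19 ± 0.11 at 20 min, -0.03 at 40 min and -0.22 at 60 min, none of them called (adjusted p = 0.341, 0.947 and 0.272). It was -0.82 at 120 min (adjusted p = 1.29e-05), -1.31 at 240 min (adjusted p = 1.54e-08) and -1.47 at 480 min, a 2.76-fold fall with adjusted p = 2.34e-09. At 480 min its change was number 17 of 16614 from the lowest. The fall between 60 and 120 min was called (-0.60, adjusted p = 0.00148, and up to 0.0249 over the alternatives). The fall between 120 and 240 min was called too (-0.49, adjusted p = 0.0173). That second step was lost without replicate B or C at 120 min (0.0694 and 0.0606), without replicate A or C at 240 min (0.0765 and 0.102), or with only the 2 times fitted (0.0764).

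EPHB2, a receptor for B-type ephrins known from the sorting of cells in epithelia, moved late. Its 3 arrays read 6.65, 6.81 and 6.82 at 0 min, 7.11, 7.12 and 7.25 at 240 min and 7.23, 7.31 and 7.52 at 480 min. At the times between, the 12 arrays lay between 6.71 and 7.07, and the groups at 20, 60 and 120 min overlapped with 0 min. The arrays at 240 and 480 min did not. Those at 40 min also lay above all arrays at 0 min, by a small margin (6.84 at the lowest, against 6.82 at the highest). The change was 0.40 ± 0.11 at 240 min (adjusted p = 0.0122) and 0.59 at 480 min, a 1.51-fold rise with adjusted p = 0.000413. From 20 to 120 min the changes ran between 0.07 and 0.18 with no call (adjusted p of at least 0.555). The call at 240 min was lost without replicate A at 0 min (adjusted p = 0.0588), without replicate A at 240 min (0.0565), with median centring (0.0562) and with the stricter filter on dim probesets (0.0989). The call at 480 min was kept in all 18 alternatives, with a highest adjusted p of 0.0153.

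EPHB4 is the receptor that pairs with EFNB2 in vessels and is also made by mammary epithelium. Its arrays read 7.61, 7.65 and 7.77 at 0 min, 7.43, 7.44 and 7.51 at 60 min and 7.79, 7.90 and 7.99 at 480 min. The 3 arrays at 60 min lay below, and the 3 at 480 min above, all 3 at 0 min, by small margins. No single time was called, with changes of -0.22 ± 0.10 at 60 min (adjusted p = 0.201) and 0.21 at 480 min (adjusted p = 0.122). The F-test over the course passed (adjusted p = 0.013), with 0.43 between the lowest and the highest time mean. With the mean in place of the median of its probesets EPHB4 was called higher at 240 min (0.28, adjusted p = 0.0153). At 480 min EPHB4 was called higher with that mean (0.36, adjusted p = 0.00255). The filter on dim probesets set at the 75th percentile also gave a call at 480 min (0.30, adjusted p = 0.0268). The probesets of EPHB4, described further on, did not move alike.

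EFNA1, an A-type ephrin and a main ligand of EPHA2, did not keep 1 direction. Its arrays read 8.10, 8.36 and 8.45 at 0 min, 8.55, 8.65 and 8.78 at 20 min, 8.69, 8.75 and 8.89 at 40 min and 8.57, 8.85 and 8.85 at 60 min. They read 7.88, 7.95 and 7.97 at 120 min, 8.48, 8.49 and 8.55 at 240 min and 7.81, 8.10 and 8.28 at 480 min. All 3 arrays at 120 min lay below every array of 0, 20, 40, 60 and 240 min. The change against 0 min was 0.36 ± 0.12 at 20 min (adjusted p = 0.15), 0.47 at 40 min (0.0439), 0.45 at 60 min (0.0302), -0.37 at 120 min (0.0473), 0.20 at 240 min (0.281) and -0.24 at 480 min (0.183). With the filter on dim probesets set at the 75th percentile the uncalled value at 240 min turned to -0.16, and that at 480 min was called at -0.45 (0.0025). At 480 min it was also called with the array index (-0.36, 0.0185) and with median centring (-0.31, 0.0457).

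The drop of EFNA1 between 60 and 120 min was its firmest result, at -0.82 ± 0.12, a 1.77-fold fall with adjusted p = 0.000225. It passed in all 18 alternatives, with a highest adjusted p of 0.0104, and it was number 63 of 16614 from the lowest. The return between 120 and 240 min was 0.57 (adjusted p = 0.0139), number 48 from the highest. This return lost its call in 8 of 18 alternatives, among them 5 of the 6 that leave out an array of either time: 0.0511 and 0.0514 without replicate A or C at 120 min, and 0.0649, 0.054 and 0.0724 without replicate A, B or C at 240 min. The 3 calls against 0 min were close to the threshold, and their sizes depended on the filter on dim probesets. At 40 min the change was 0.21 with no filter and 0.22 with the filter at the 75th percentile, also 0.28 with the mean of probesets. At 60 min it was 0.28 with the filter at the 75th percentile, and at 120 min -0.21 with no filter. The call at 40 min was lost in 12 of 18 alternatives, with adjusted p = 0.245 and 0.0807 without replicate A or C at 0 min and 0.179, 0.104 and 0.0806 without replicate A, B or C at 40 min. The call at 60 min was lost in 7 of 18, with 0.165 without replicate A at 0 min and 0.121 and 0.15 without replicate A or C at 60 min. The call at 120 min was lost in 9 of 18, with 0.177 and 0.123 without replicate B or C at 0 min and 0.0922, 0.0899 and 0.102 without replicate A, B or C at 120 min.

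EFNA5, an A-type ephrin that binds EPHA4 among other receptors, fell late. Its arrays read 8.28, 8.42 and 8.57 at 0 min, 8.47, 8.57 and 8.88 at 20 min, 8.33, 8.53 and 8.73 at 40 min and 8.33, 8.39 and 8.66 at 60 min. They read 7.79, 8.08 and 8.17 at 120 min, 7.49, 7.71 and 7.89 at 240 min and 7.31, 7.74 and 7.83 at 480 min. The arrays up to 60 min overlapped with 0 min, and the 9 arrays from 120 min on lay below all 3 at 0 min. The change was -0.41 ± 0.16 at 120 min (adjusted p = 0.0861), -0.72 at 240 min (0.00198) and -0.80 at 480 min (0.000705), a 1.74-fold fall at the last time. The calls at 240 and 480 min passed in all 18 alternatives. At 120 min the change passed in 3 of 18, the lowest adjusted p being 0.000398 with the array index as a covariate.

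EFNB2, a B-type ephrin and the ligand of EPHB4, was highest at 60 and 120 min. Its arrays read 8.34, 8.60 and 8.63 at 0 min, 8.23, 8.42 and 8.49 at 20 min, 8.63, 8.67 and 8.74 at 40 min and 9.01, 9.08 and 9.11 at 60 min. They read 9.15, 9.20 and 9.43 at 120 min, 8.71, 8.82 and 8.83 at 240 min and 8.69, 8.79 and 8.86 at 480 min. All 6 arrays of 60 and 120 min lay above every array of the other times. The change was 0.55 ± 0.11 at 60 min (adjusted p = 0.0023) and 0.74 at 120 min, a 1.67-fold rise with adjusted p = 3.37e-05, and both calls passed in all 18 alternatives. It was 0.26 at 240 min (adjusted p = 0.0847) and at 480 min (0.083), and neither was called, although all 6 arrays of these times lay above all 3 at 0 min. Both were called in 3 of 18 alternatives, with a pseudocount of 64 (0.048 and 0.0466), the mean of probesets (0.0169 and 0.0071) and array weights (0.0158 and 0.0374). The fall between 120 and 240 min was called (-0.48, adjusted p = 0.0189), but not without replicate C at 120 min (0.136), without replicate A, B or C at 240 min (0.128, 0.0619 and 0.0522), or with only the 2 times fitted (0.144).

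EFNB1, a B-type ephrin of epithelial boundaries, was the member without a call. Its arrays read 8.20, 8.32 and 8.58 at 120 min, 8.28, 8.32 and 8.34 at 240 min and 8.11, 8.27 and 8.42 at 480 min, against 7.67, 7.97 and 8.26 at 0 min. The groups of 120 and 480 min overlapped with 0 min, where replicate A stood highest at 8.26. The change was 0.40 ± 0.15 at 120 min (adjusted p = 0.0766), with a 95% interval of 0.09 to 0.72 for that contrast alone, and 0.35 at 240 min (0.113). The F-test gave adjusted p = 0.143. Without that array EFNB1 was called higher at 120, 240 and 480 min (0.55, 0.49 and 0.45, with adjusted p = 0.0244, 0.0343 and 0.0481). With all arrays it was called higher at the same times with the mean of probesets (0.0419, 0.00289 and 0.0104) and with the array index as a covariate (0.0229, 0.0336 and 0.0483), and at 240 min with array weights (0.024).

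Tests between successive times located the steps. Between 20 and 40 min 1 of 8 members rose, EPHA2, and 0 fell, beside 0.482% and 0.0903% of all genes. Between 40 and 60 min 0 rose and 0 fell in limma, beside 0.156% and 0.0722%, with 2 higher (EPHA2 and EFNB2) and 0 lower at an unadjusted p under 0.05. Between 60 and 120 min 0 rose and 2 fell, EPHA4 and EFNA1, beside 2.18% and 1.3%, with 2 higher (EPHB4 and EFNB1) at an unadjusted p under 0.05. Between 120 and 240 min 1 rose, EFNA1, and 2 fell, EPHA4 and EFNB2, beside 0.445% and 1.1%. Between 240 and 480 min 0 rose and 0 fell, beside 0.782% and 0.692%, with 0 higher and 2 lower (EPHA2 and EFNA1) at an unadjusted p under 0.05. These steps share arrays with the contrasts against 0 min.

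Single probesets showed how much of each gene carried its change. Probesets of a gene read the same RNA and are not replicates. Of the 144 kept probesets 94 passed the F-test adjusted over all 261183 single-gene probesets, of which 20.1% passed. The counts were 18 of 20 for EPHA2, 24 of 24 for EPHA4, 7 of 23 for EPHB2 and 8 of 27 for EPHB4. For the ligands they were 8 of 11 for EFNA1, 9 of 11 for EFNA5, 5 of 11 for EFNB1 and 15 of 17 for EFNB2.

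All 24 probesets of EPHA4 were lower at 120, 240 and 480 min than at 0 min. At 480 min the change ran between -1.95 (probeset 2600700) and -0.69 (2600725), and 23 of 24 were called lower. All 11 probesets of EFNA5 were lower at 240 and 480 min, where the change ran between -1.10 (2869970) and -0.31 (2869971) at 480 min. In EPHA2 all 20 were above 0 at 60 min, between 1.997 (2397965) and 0.12 (2397980). The 3 probesets with the highest ID numbers, 2397978, 2397979 and 2397980, changed by 0.35, 0.29 and 0.12 at 60 min, and the median of all 20 was 1.41. The other 17 were at 0.83 or above.

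**Figure D3:**
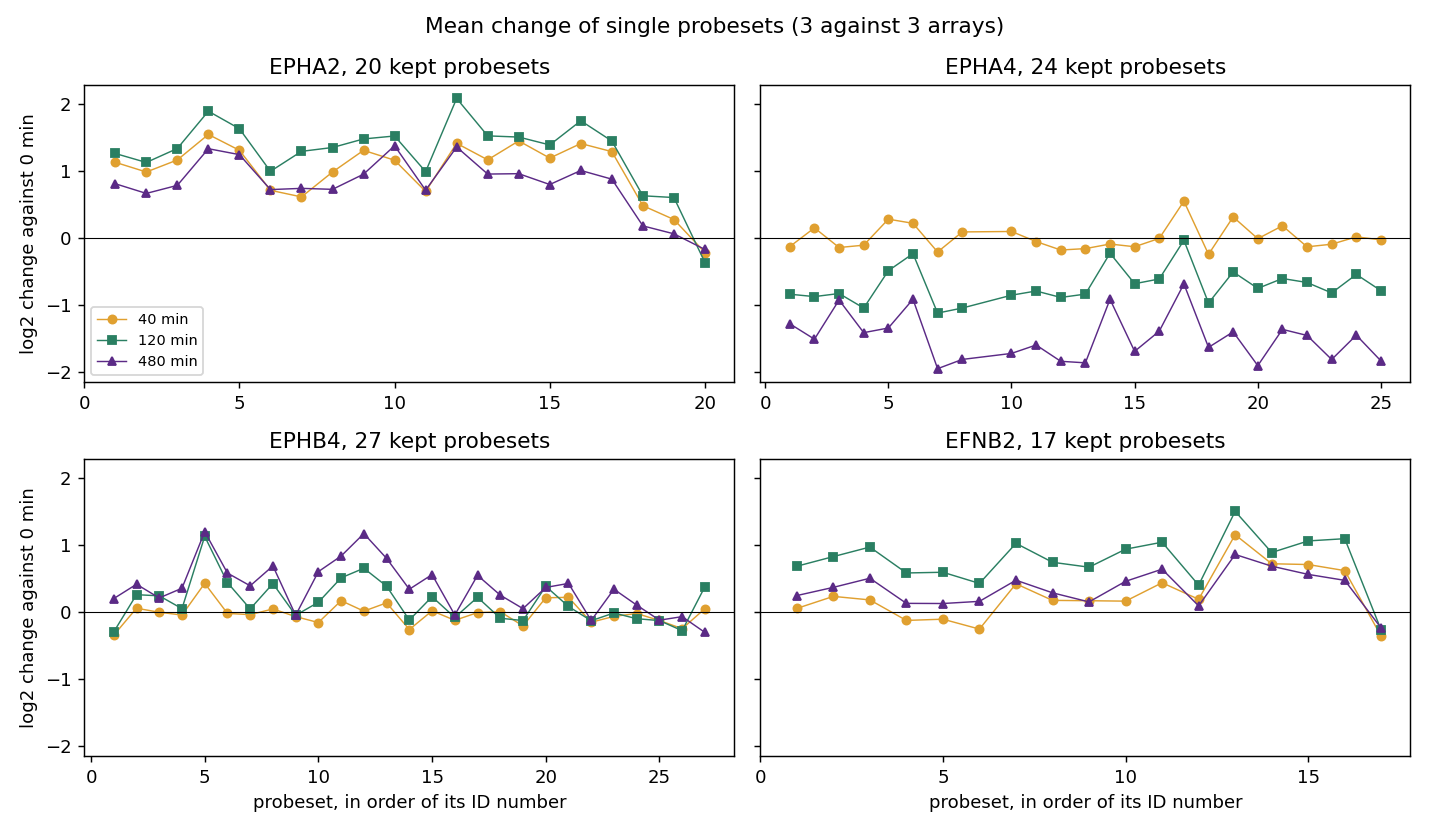
Mean log2 change against 0 min (vertical axis) of each kept probeset of EPHA2, EPHA4, EPHB4 and EFNB2, in the order of probeset ID numbers (horizontal axis), at 40, 120 and 480 min. EPHA4 is below 0 throughout at 120 and 480 min, the last 3 probesets of EPHA2 and the last of EFNB2 lie under the rest, and EPHB4 is mixed.

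In EFNB2 16 of 17 probesets were above 0 at 120 min, with 1.50 at most (3524588), and the exception was the last in ID order (3524605, -0.28). The 4 probesets before it, 3524588, 3524589, 3524590 and 3524604, already changed by 1.15, 0.72, 0.71 and 0.62 at 40 min, none of them called alone, while the median of all 17 was 0.18. EPHB4 was the least uniform, with each gene taken at the time of its largest change against 0 min. For EPHB4 that time was 60 min (-0.22), nearly equalled in size at 480 min (0.21), and neither change was called. At 60 min 15 of 27 were below 0 and 12 above, and probeset 3064299, at 0.80, had the opposite sign of the gene, while 3064326 had -0.39. At 120, 240 and 480 min probeset 3064299 stood at 1.13, 1.30 and 1.20, where the gene stood at 0.01, 0.16 and 0.21. Later most EPHB4 probesets were higher. At 240 min 22 of 27 were above 0, with a median of 0.28, and 4 were called higher and 0 lower. At 480 min 21 of 27 were above 0, with a median of 0.35, and 7 were called higher and 0 lower. EPHB2 had 21 of 23 above 0 at 480 min, between 1.06 (2324970) and -0.36 (2324921, the first in ID order). In EFNA1 10 of 11 were above 0 at 40 min, between 0.64 (2360693) and -0.11 (2360695), 11 of 11 were above 0 at 60 min, and 10 of 11 were below 0 at 120 min. At 240 min 5 of the 11 EFNA1 probesets were above 0 and 6 below, with a median of -0.02. At 480 min 11 of 11 were below 0, and 3 were called lower. In EFNB1 8 of 11 were above 0 at 120 min, between 0.67 (3980183) and -0.52 (3980187). ID order need not follow the transcript, and no exon positions were used here.

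Courses of the members were compared over the 7 time means, as a description over points that share the same arrays. EPHA4 and EFNA5 ran closest together (r = 0.993, n = 7), and EPHA4 and EFNB1 ran most against each other (r = -0.868). EPHA2 and EFNB2 had r = 0.764, EPHA2 and EFNA1 0.144, and EPHB4 and EFNB2 -0.233. The genes with the courses most like those of the members were taken from 4563 other genes that passed the F-test. For EPHA2 they were NAMPT (an enzyme of NAD synthesis), FOSL1 (an AP-1 subunit) and HBEGF (which activates the EGF receptor), with r = 0.987, 0.986 and 0.985 and changes of 1.65, 2.82 and 3.83 at 60 min. For EPHA4 they were HS6ST1 (a heparan sulfate sulfotransferase), FAT2 (a large cadherin) and PLD1 (a phospholipase), with r = 0.995, 0.994 and 0.993. For EFNA5 they were PLD1, CBLB (a ubiquitin ligase) and HEG1 (a membrane glycoprotein), with r = 0.996, 0.993 and 0.993. PLD1 changed by -1.17 at 480 min, where EPHA4 and EFNA5 changed by -1.47 and -0.80.

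For EFNB2 the nearest courses were those of SPATA2L, PLEKHG3 and ZC3H12C (a member of the Regnase family of RNases), with r = 0.986, 0.979 and 0.970 and changes of 0.63, 0.37 and 0.50 at 120 min. For EPHB2 they were KCNQ5 (a potassium channel), CTNS (the lysosomal cystine transporter) and WNT7A (a Wnt ligand), with r = 0.986, 0.979 and 0.975 and changes of 0.68, 0.83 and 1.18 at 480 min. EPHB4 was most like SLC26A6 (an anion exchanger), ELOVL6 (a fatty acid elongase) and ACLY (ATP citrate lyase), with r = 0.975, 0.973 and 0.969. EFNA1 had the least close neighbours, SYBU (syntabulin), RNF217 (a ubiquitin ligase) and PLK2 (a polo-like kinase), with r = 0.957, 0.953 and 0.951. These r values are the highest of the 4563 for each of the 7 members that passed the F-test, and no test was made of them. EFNB1 did not pass it and was left out here.

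The other 14 Eph and ephrin genes were all tested, and 3 of 14 passed the F-test (21.4%, beside 27.5% of all genes): EPHA5, EPHB3 and EPHB6. At none of the 6 EGF times was any of the 14 called higher in limma (at most 1 at any time at an unadjusted p under 0.05), 2 were lower at 240 min and 3 at 480 min, beside 6.21% and 7.11% of all genes. EPHA5, a receptor best known from neurons, read 5.36, 5.49 and 5.55 at 240 min and 5.38, 5.39 and 5.44 at 480 min, against 6.20, 6.38 and 6.39 at 0 min. Its late values were dim, close to 5.18, the level of the filter on dim probesets. EPHA5 changed as follows. Its change was -0.86 ± 0.11 at 240 min (adjusted p = 5.48e-06) and -0.92 at 480 min (2.13e-06). EPHB3, a receptor of B-type ephrins, read 6.78, 6.90 and 6.99 at 240 min and 6.60, 6.74 and 6.75 at 480 min, against 7.24, 7.48 and 7.65 at 0 min, with changes of -0.57 ± 0.14 (0.00476) and -0.76 (0.000277). EPHB6, a member without kinase activity, read 6.14, 6.15 and 6.19 at 480 min, against 6.51, 6.67 and 6.81 at 0 min, a change of -0.50 ± 0.11 (0.00189). In each of the 3 all arrays at 480 min lay below all arrays at 0 min. The median change of the 14 genes at 480 min was -0.14, beside 0.05 for all genes.

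**Figure D4:**
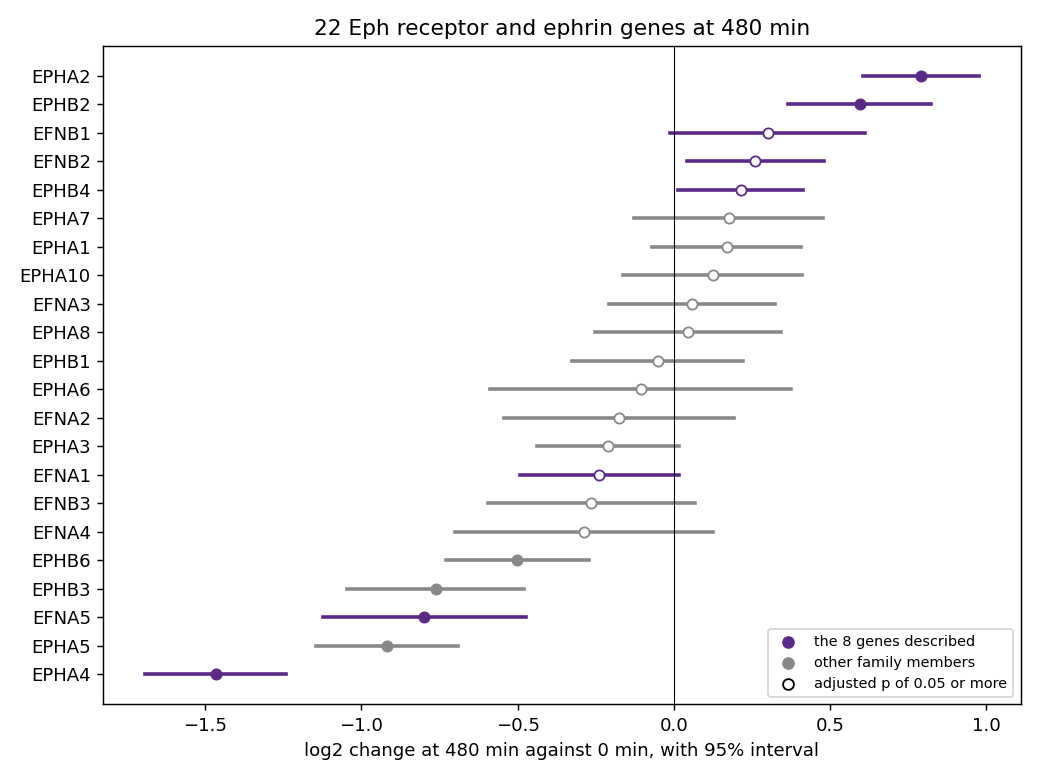
Log2 change at 480 min against 0 min (horizontal axis) with its 95% interval for 22 Eph receptor and ephrin genes (rows, ordered by the change), filled where the adjusted p is under 0.05, purple for the 8 genes described and grey for the other 14. EPHA2 and EPHB2 are called higher, and EPHA4, EPHA5, EFNA5, EPHB3 and EPHB6 are called lower.

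Genes that carry Eph signals were counted from lists of known partners, which were chosen with earlier results of these data in view. Of 52 forward-signalling genes and adaptors 49 were tested, and 22 of 49 passed the F-test (44.9%, beside 27.5% of all genes). At 120 min 9 were higher and 2 lower, beside 11.2% and 3.21% of all genes. At 240 min 16 were higher and 4 lower, beside 13.5% and 6.21%, and at 480 min 16 and 3, beside 15.5% and 7.11%, with a median change of 0.24 at 480 min beside 0.05 for all genes. The 8 with the smallest F-test p included both directions. VAV3, an exchange factor for small GTPases, fell by 1.92 ± 0.16 at 120 min (adjusted p = 2.49e-08), number 2 of 16614 from the lowest. Its mean at 120 min was dim, at 5.75 against 7.67 at 0 min, where the filter on dim probesets lay at 5.18. At 480 min the change of VAV3 was -1.44. INPPL1, which encodes the SHIP2 phosphatase that binds EPHA2, fell by 1.03 ± 0.10 at 480 min (1.62e-07).

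Of these 8, 5 rose, and they were kinases, adaptors and a Rac regulator. LYN, a Src-family kinase, was at 1.33 ± 0.19 at 240 min (adjusted p = 3.23e-05), and TIAM1, an exchange factor for Rac that binds Eph receptors and ephrins, at 0.93 ± 0.12 (7.65e-06). RPS6KA3, which encodes the RSK2 kinase, was at 0.77 ± 0.13 at 480 min (0.00017). The adaptors CRK (0.73 ± 0.12 at 120 min, 0.000228) and SHC1 (0.70 ± 0.10 at 240 min, 2.49e-05) were higher as well. ARHGEF28, a guanine nucleotide exchange factor, passed the F-test but no single contrast against 0 min, with 0.48 ± 0.13 at 20 min (0.0817) and -0.35 at 240 min (0.0639). CHN2, RASA1 and PAK1 had no probeset with a single symbol and were not analysed here.

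Of the genes of reverse signalling, PDZ partners of ephrins and proteases that shed Eph proteins 15 were tested, and 6 of 15 passed the F-test (40%, beside 27.5% of all genes). At 480 min 3 were higher and 1 was lower, beside 15.5% and 7.11% of all genes. MMP9, a secreted gelatinase, rose by 2.12 ± 0.12 on the log2 scale at 480 min (adjusted p = 3.5e-11), and MMP14, a membrane protease known to cleave EPHA2, by 0.43 ± 0.11 (0.00764). The mean of MMP9 was dim at 0 min, at 5.82, and reached 7.94 at 480 min. AFDN, the PDZ protein afadin of cell junctions, was at 0.64 ± 0.15 at 240 min (0.00409), and SDCBP, the PDZ protein syntenin, at 0.61 ± 0.14 at 120 min (0.00478). DVL2, a Dishevelled protein, fell by 0.50 ± 0.09 at 240 min (0.000343). PDZRN3, a ubiquitin ligase with PDZ domains, passed the F-test with no single call, at 0.44 ± 0.17 at 480 min (0.0664). ADAM10, the sheddase of several ephrins, had -0.16 ± 0.14 at 240 min and no call (0.481).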

How the data were processed

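The authors deposited 1 intensity per probeset and array for 1384231 probesets, on a linear scale. The submitters' processing notes name PLIER and Affymetrix Expression Console 1.1, with settings not given in the sources used here. Array medians lay between 20.44 and 20.56 intensity units, so arrays were equalised before deposit. Precision is limited by the number of arrays.

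The deposited intensities were taken to log2(intensity + 16), which understates changes of dim genes. Probesets with a mean at or above the median of all (5.18 on this scale) were kept, and a gene needed at least 3. All 21 arrays entered 1 model with a mean per time in limma 3.58.1 (R 4.3.3 with version 1.17.8 of data.table), with 14 residual and 7.08 prior degrees of freedom. Tests were two-sided, and p-values were adjusted by Benjamini-Hochberg over all genes, or all kept single-gene probesets, within a contrast. The code was tested on simulated data. Replicate letters A, B and C are shared by the times. Deviations of arrays of 1 letter had a median r of -0.011 over 63 pairs, between -0.54 and 0.56. Of these pairs 19 had r over 0.1, beside 47 of 126 pairs with unlike letters. For 11 of 21 arrays the closest array of another time had the same letter, although pairs with the same letter (63) were fewer than pairs with unlike letters (126). This count was not tested. No block entered the main model, and a fit with the block is among the alternatives.

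All 8 members were named at every time. Other family genes and partners were named where the F-test passed (at most 8 a list, by smallest p), like courses as the 3 highest r, and probesets as the largest and smallest change at the gene's peak time. Further probesets, ADAM10 and the genes not tested were named after their values were seen. Members and lists were chosen with earlier results of these data known. Probesets are given without coordinates, since their genome build is not given in the sources used here. Alternatives changed the scaling, pseudocount, filter, probeset summary, replicate block, array index, array weights, variance trend, samples fitted and left-out arrays.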

Additional observations from a re-analysis of the deposited data

How the results depend on the processing

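The members' calls were recomputed under 12 other settings and with each array left out, and no change that was called turned its sign. The F-test called 7 of 8 members in each left-out run and 7 with the replicate block. The block called 1 member higher at 40 min and 1 lower at 120 min, where the main model called 2 and 2, and changed no other member count against 0 min by over 1.5 times. Members higher at 40 min also numbered 1 with array weights, the filter at the 75th percentile, the mean of probesets, no filter, a pseudocount of 1 and only the 2 times fitted, and 1 to 2 with an array left out. Members lower at 120 min numbered 1 with no filter, a pseudocount of 1 and only the 2 times fitted, and 1 to 2 with an array left out. EFNA5 was called lower at 120 min as well with median centring, the array index and array weights (adjusted p = 0.0135, 0.000398 and 0.0256 in limma). EFNA1 lost its call at 60 min with the 75th percentile filter, the array index, array weights and only the 2 times fitted. It was called lower at 480 min with median centring, the array index and the 75th percentile filter. Members higher at 240 min (2 in the main model) numbered 4 with array weights, 5 with the mean of probesets, 1 with the 75th percentile filter and 1 with median centring, and 1 to 2 with an array left out. At 480 min the mean of probesets gave 5 higher. With only the 2 times fitted, 0 were higher at 20 min, 0 rose between 20 and 40 min and 0 fell between 120 and 240 min. Members rising between 120 and 240 min (1) numbered 3 with array weights, 0 with the 75th percentile filter, the mean or no filter, and 0 to 1 with an array left out, where those falling (2) numbered 0 to 2. Members falling between 240 and 480 min (0) numbered 2 with the array index, array weights or median centring, and 1 with the mean, no filter, a pseudocount of 64 or the variance trend. The causes of these differences were not tested. Over all genes the F-test called 4570, with 4305 to 8993 under the other settings and 3730 to 5217 with an array left out. The background counts also depended on single arrays. Genes higher at 20 min (149) numbered 881 without replicate C at 20 min, 79 and 90 without B and A at 20 min and 88 without A at 0 min, and genes lower (14) numbered 295 without that C array and 2 to 8 without A or B of either time. Genes lower at 40 min (69) numbered 22 and 31 without C and B at 40 min and 32, 41 and 39 without A, B and C at 0 min. Genes higher at 60 min (801) numbered 403 and 528 without C and A at 60 min and 515 without A at 0 min, and genes lower (162) numbered 51, 86, 92 and 97 without C or A at 60 min and A or B at 0 min. Genes higher at 120 min (1862) numbered 1108 without C, genes lower (533) 332 without B, and genes higher at 240 min (2249) 1479 without C. Counts between successive times moved with single arrays of those times too, the most between 20 and 40 min, where 169 genes rose and 155 fell without replicate C at 20 min. The median change of all genes moved most under median centring, by -0.09 on the log2 scale at 120 min. The array weights were estimated gene by gene, a method chosen after the default estimate did not converge on these data.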
